A study of Oryctolagus cuniculus with 8 samples.

Results

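Müller glia are the radial glial cells of the retina. They span its whole depth, take up the glutamate that neurons release, turn it into glutamine, carry potassium and water away from active neurons, and keep a set of progenitor transcription factors at a low level in the adult. Genes of this programme, 9 in all, were followed in 8 rabbit retinas: *GLUL*, *SLC1A3*, *AQP4*, *KCNJ10*, *SOX9*, *SOX2*, *DKK3*, *HES1* and *CAV1*. They are 9 of the 25666 genes of the deposited table, and all 9 were found in it by symbol. All 9 were also among the 12204 protein-coding genes that reached at least 1 FPKM (fragments on a gene scaled for the length of the gene and the depth of the library) in at least 2 retinas. The genes were chosen by function and with their FPKM in these same libraries in view, so the values of the members by diet are given as a description, with no test.

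The retinas came from wild-type male Chinchilla rabbits that arrived aged 12 to 16 weeks and were then fed for 6 months. ND (normal diet) was standard rabbit chow, and every other diet was made from that chow. HFD (high-fat diet) contained 10% lard and 0.5% cholesterol, HSD (high-sucrose diet) held sucrose at 40%, and HFSD had as much lard and cholesterol as HFD, with sucrose at 35%. There were 2 retinas for each of the 4 diets, named replicates 1 and 2, and the labels do not say whether the 2 came from different animals, so that every error and P value measures only the spread between these retinas. The sucrose content of HSD and HFSD differed, and lard and cholesterol were given together, so that their parts cannot be told apart. The 3 comparisons with ND share the same 2 ND retinas. The libraries held 15223356 to 22293225 fragments over genes, as recovered from the steps of the FPKM values.

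The 8 retinas differed in more than their diet. The summed FPKM of 7 astrocyte markers was 1186 in ND replicate 1 and between 256 and 987 in the others, and that of 7 myelin genes was 703 in ND replicate 1 and between 45.6 and 469.6 in the others. The astrocyte gene *GFAP* was at 524 FPKM in ND replicate 1 and at 12.1 in ND replicate 2, 216 and 203 with HFD, 2.37 and 1.08 with HSD, and 3.05 and 69.5 with HFSD. A sum over 9 markers of the pigment epithelium was 328 and 256 in ND and between 27.5 and 90.9 in the other diets. HSD replicate 2 held skeletal muscle genes at a summed 416 FPKM, against at most 1.01 elsewhere. In whole retinas, fewer Müller cells and less RNA of a gene per Müller cell cannot be told apart. Müller cell RNA was present in every retina, with *GLUL*, *SLC1A3* and *DKK3* each above 150 FPKM in all 8, as were the further Müller cell genes *VIM* and *CLU*, while *AQP4* was low throughout.

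The 9 genes spanned a wide range of levels. *GLUL* was the most abundant by far, with a mean over the 8 retinas of 1263 FPKM, followed by *DKK3* at 201 and *SLC1A3* at 189. *CAV1* (46.6), *SOX2* (44.1), *KCNJ10* (43.1) and *HES1* (40.9) lay close to each other, and the ranges of these 4 genes over the 8 retinas overlapped, as did those of *DKK3* and *SLC1A3*. *SOX9* had a mean of 21.8 FPKM and *AQP4* of 6.98 FPKM. Ranked among all protein-coding genes, *GLUL* stood between 20 and 25 in the 4 retinas without sucrose and between 47 and 62 in the 4 retinas with sucrose. *AQP4* rested on 60 to 320 fragments per library, the fewest of the 9, and *GLUL* on 15045 to 47642.

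**Figure D1:**
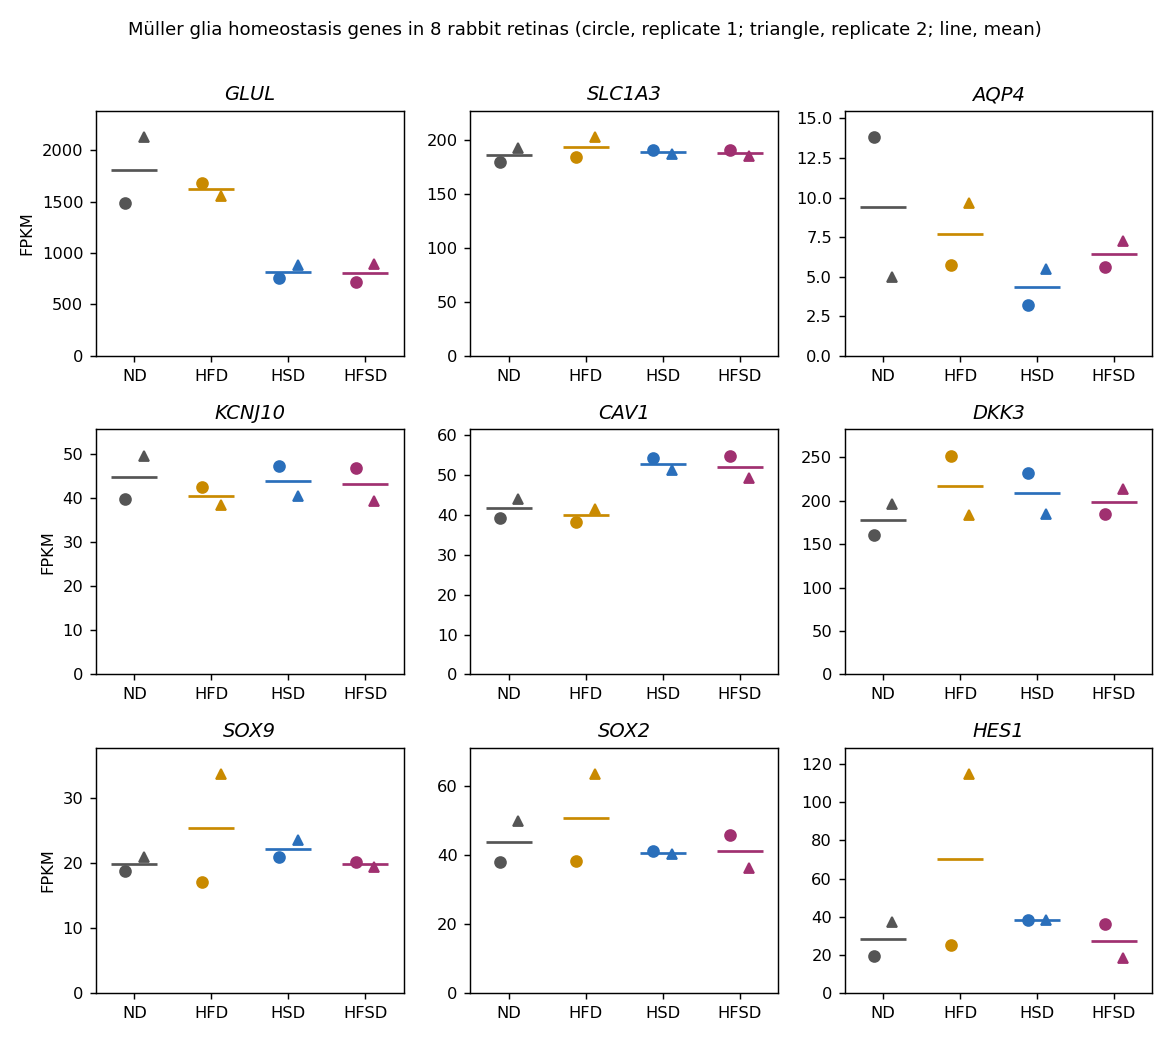
Each panel shows the FPKM (y axis, from 0) of 1 member in the 8 retinas by diet (x axis). Circles are replicate 1, triangles replicate 2, and lines the mean of the 2. In the panel of *GLUL* the 4 retinas of the sucrose diets, at 722 to 890 FPKM, sit below the 4 others, at 1489 to 2127, and in the panel of *CAV1* they sit above them.

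Glutamate handling was described first. *GLUL* encodes glutamine synthetase, which joins glutamate and ammonia into glutamine and in the retina is found in Müller cells. Its level was 1489 and 2127 FPKM under ND, 1685 and 1551 under HFD, 754 and 883 under HSD, and 722 and 890 under HFSD. Both HFD retinas lay between the ND retinas, and all 4 retinas with sucrose lay below all 4 retinas without it, as they did for 6.48% of all genes tested. The group means were 1808 ± 451 FPKM on ND, 1618 ± 94.6 on HFD, 819 ± 90.8 on HSD and 806 ± 119 on HFSD (mean ± s.d., n = 2). On the scale of log2(FPKM + 1), the difference to ND was -0.14 with HFD, -1.12 with HSD and -1.15 with HFSD, with a standard error from limma of 0.22 in each. Leaving out 1 ND retina moved the HSD difference to between -1.38 and -0.87, and the HFSD difference to between -1.41 and -0.89. The mean over both sucrose diets was 0.474 times that over the others.

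*SLC1A3* encodes the glutamate-aspartate transporter of Müller cells (GLAST), which brings the substrate of glutamine synthetase into the cell. It was at 180 and 193 FPKM under ND, 184 and 203 under HFD, 191 and 187 under HSD, and 190.2 and 185 under HFSD. The groups overlapped throughout, and the highest retina was only 1.13 times the lowest, the smallest span of the 9 genes. The log2 differences to ND were 0.06, 0.02 and 0.01 in HFD, HSD and HFSD, each with a standard error of 0.11.

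The uptake and the conversion gene therefore stood in different proportions with and without sucrose. The ratio of *GLUL* to *SLC1A3* within a retina was between 7.66 and 11.0 in the 4 retinas without sucrose and between 3.79 and 4.81 in the 4 with it. Set against *VIM*, the intermediate filament protein of Müller cells, *GLUL* gave ratios of 1.78 to 2.09 and of 0.898 to 1.27. Set against *RLBP1*, the retinaldehyde-binding protein of Müller cells and pigment epithelium, the ratio of *GLUL* ran from 6.96 to 9.94 without sucrose and from 6.74 to 9.61 with it, and the 2 ranges overlapped. *RLBP1* itself was at 150 and 305 FPKM on ND, 229 and 186 on HFD, 102 and 131 on HSD, and 95.0 and 92.6 on HFSD. It is also a gene of the pigment epithelium, whose summed markers were lower in every diet than in ND, HFD included.

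**Figure D2:**
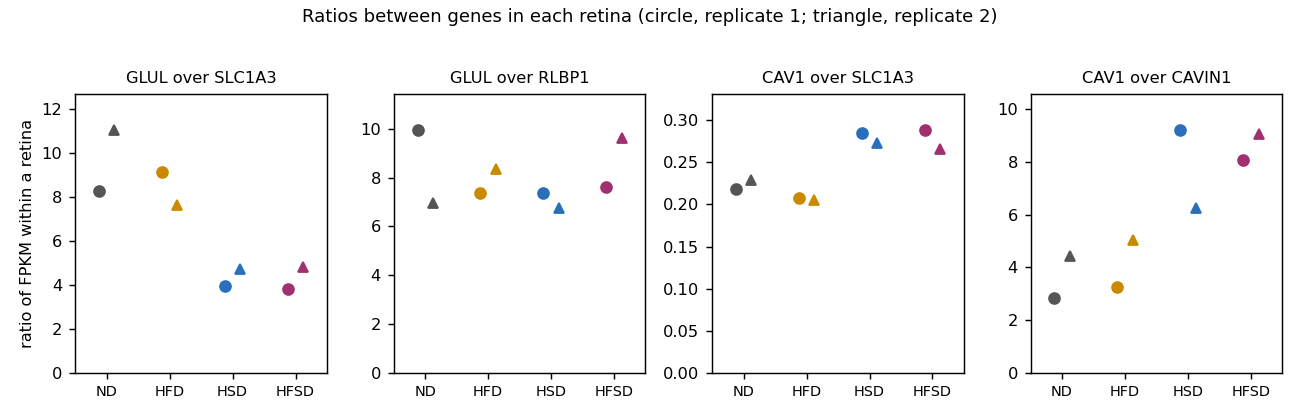
The y axes, from 0, show ratios of FPKM between 2 genes within each retina, and the x axes the diets. Circles are replicate 1 and triangles replicate 2. *GLUL* over *SLC1A3* (7.66 to 11.0 without sucrose, 3.79 to 4.81 with it), *CAV1* over *SLC1A3* and *CAV1* over *CAVIN1* fall into separate ranges with and without sucrose, while *GLUL* over *RLBP1* overlaps.

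Astrocytes also express *GLUL*. The summed astrocyte markers ran from 412 to 1186 FPKM in the 4 retinas without sucrose and from 256 to 509 in the 4 with it, and the 2 ranges overlapped. Of the 6 astrocyte markers tested, 5 had a lower fitted level with sucrose (median log2 difference -0.64), and *GJA1*, the gap junction protein connexin 43, passed the test, lower with sucrose as the *GLUL* values were. It was at 10.1 to 36.0 FPKM without sucrose and 0.442 to 3.97 with it (log2 difference -2.80, s.e. 0.34, limma adjusted P = 0.0311). Its adjusted P ran from 0.022 without ND replicate 2 to 0.106 without HFD replicate 1, and it did not pass with no filter, with the replicate block, in voom, or without either HFD retina, either HSD retina or HFSD replicate 1. ND replicate 2, with *GFAP* at 12.1 FPKM, had the highest *GLUL* of all retinas, and HFSD replicate 2, with *GFAP* at 69.5, had 890 FPKM of *GLUL*. Cone markers followed the same split as *GLUL* in the other direction, with summed levels of 451 to 597 FPKM without sucrose and 770.3 to 933 with it. Of the 5 cone markers tested, 2 passed the test, *OPN1SW* and *PDE6C*, beside 0.344% of all genes. *OPN1SW* did not pass without HSD replicate 2. *PDE6C* did not pass with no filter, with the replicate block, or when any HFD, HSD or HFSD retina was left out. The part of these cell types in the *GLUL* values was not tested.

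Of 17 further genes of glutamate uptake and the glutamine cycle, 15 were in the table and 14 were tested. None passed a limma test across all genes (adjusted P under 0.05, by the Benjamini-Hochberg method) in any comparison. Of all 12204 genes, the test called 0.00819% in HFD, 0.0574% in HSD, 0.0164% in HFSD, 0.344% (42 genes) between the diets with and without sucrose, 0.00819% between those with and without fat, and 0.00819% for the interaction of fat and sucrose. The 42 genes became 4 without HSD replicate 2, 82 without ND replicate 1, 8 with no filter on low values and 18 in a voom fit on the recovered fragments, which was chosen after seeing the data. At an unadjusted P under 0.05 the list held 1 gene for HFD, 2 for HSD, 0 for HFSD and 1 for sucrose, beside 4.31%, 7.2%, 8.07% and 18.3% of all genes. The voom fit called no gene of this or the other related lists. The median log2 difference of the list between the sucrose diets and the others was -0.03, against -0.01 over all genes tested. The glutamine exporter *SLC38A3* ran from 344 to 450.0 FPKM. Among the 14 tested genes, *SLC1A2* (GLT-1), a transporter of cones, bipolar cells and astrocytes, was the 1 past a fold limit, in HFD. It was at 22.9 and 16.3 FPKM under ND, 9.94 and 12.7 under HFD, 29.2 and 17.9 under HSD, and 19.3 and 16.6 under HFSD. Its log2 difference between HFD and ND was -0.73 (s.e. 0.26, limma adjusted P = 0.998).

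Potassium and water balance came next. *KCNJ10* encodes the inward rectifier Kir4.1, through which Müller cells take up and release potassium. It was at 40.0 and 49.7 FPKM on ND, 42.5 and 38.5 on HFD, 47.4 and 40.5 on HSD, and 46.9 and 39.4 on HFSD. No diet stood apart, and the log2 differences to ND were -0.14, -0.02 and -0.05 with a standard error of 0.15. *AQP4* encodes the water channel that sits beside Kir4.1 in Müller cell endfeet and in astrocytes. It was at 13.8 and 5.01 FPKM with ND, 5.75 and 9.67 with HFD, 3.21 and 5.48 with HSD, and 5.63 and 7.28 with HFSD. The 2 ND retinas were nearly as far apart as the lowest and the highest of the 8, and no diet stood apart from them. The log2 difference in HSD was -0.85 with a standard error of 0.44, and it was -0.20 without ND replicate 1 and -1.503 without ND replicate 2. In HFD and HFSD the differences of -0.15 and -0.35 became 0.50 and 0.30 without ND replicate 1, and -0.80 and -0.999 without ND replicate 2. ND replicate 1, the retina with the most *AQP4*, was also the one with the most *GFAP* and myelin RNA, and the part of astrocytes in its *AQP4* was not tested.

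Around these channels, 15 of 21 listed genes of potassium, water and membrane anchoring were tested. None passed the test in any comparison, and 1, 0, 2 and 5 had an unadjusted P under 0.05 in HFD, HSD, HFSD and between the diets with and without sucrose, beside 4.31%, 7.2%, 8.07% and 18.3% of all genes. The sodium-pump subunit *ATP1B2* was high throughout, between 371 and 477 FPKM, and *AQP11*, another aquaporin, ran from 92.5 to 134 FPKM. *KCNJ13*, which encodes Kir7.1 of the pigment epithelium, was at 11.1 and 18.5 FPKM under ND, 13.1 and 13.2 under HFD, 7.62 and 11.4 under HSD, and 6.50 and 3.23 under HFSD (HFSD log2 difference -1.45, s.e. 0.33, limma adjusted P = 0.332). The HFD retinas lay between the ND retinas. The summed pigment epithelium markers, a list that holds *KCNJ13* itself, were at 90.9 and 58.6 FPKM with HFD, against 328 and 256 with ND and 75.0 and 27.5 with HFSD.

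*CAV1* encodes caveolin 1, the coat protein of caveolae, flask-shaped pits of the plasma membrane that in the retina are found in Müller cells and in blood vessels. It was at 39.3 and 44.1 FPKM on ND, 38.2 and 41.6 on HFD, 54.3 and 51.2 on HSD, and 54.8 and 49.2 on HFSD. All 4 retinas with sucrose lay above all 4 without it, as for 6.39% of all genes tested, with a mean of 52.4 ± 2.65 against 40.8 ± 2.61 FPKM (s.d., n = 4). The log2 differences to ND were -0.06 with HFD, 0.33 with HSD and 0.31 with HFSD, with a standard error of 0.12. The difference between the sucrose diets and the others was 0.35 (s.e. 0.08) on that scale, and -1.07 (s.e. 0.16) for *GLUL*.

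Caveolae also need the cavin proteins, of which *CAVIN1* is the one required in most cells. It was at 13.9 and 9.91 FPKM under ND, 11.7 and 8.24 under HFD, 5.89 and 8.21 under HSD, and 6.80 and 5.42 under HFSD, so that its 4 sucrose retinas lay below the 4 others, with the highest of the first at 8.21 and the lowest of the second at 8.24. Its log2 difference over both sucrose diets was -0.65 (s.e. 0.17, limma adjusted P = 0.145) and did not pass the test. The ratio of *CAV1* to *CAVIN1* was between 2.83 and 5.04 without sucrose and between 6.24 and 9.21 with it. *CAV2*, the partner of *CAV1*, overlapped between the diets at 7.52 to 11.7 FPKM, and none of the 4 caveolar genes tested was called in any comparison (1 had an unadjusted P under 0.05 in HSD, in HFSD and in the sucrose comparison, beside 7.2%, 8.07% and 18.3% of all genes). All 9 endothelial markers summed to 115 and 128 FPKM on ND, 148 and 139 on HFD, 126 and 107 on HSD, and 132 and 101 on HFSD. *KDR*, which retinal neurons also express, was then left out, a choice made after its values were seen. The other 8 markers summed to 39.0 and 1.70 FPKM on ND, 25.3 and 9.72 on HFD, 1.48 and 4.16 on HSD, and 0.855 and 9.18 on HFSD. In HSD replicate 1 and HFSD replicate 1, 5 and 4 of these 8 markers were listed at 0, and *CAV1* was at 54.3 and 54.8 FPKM. In ND replicate 2, 2 of the 8 were listed at 0, and *CAV1* was at 44.1 FPKM. The part of endothelium in the *CAV1* values was not tested.

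Müller cell identity was represented by *SOX9* and *SOX2*, transcription factors that keep Müller cells in their glial state, and by *HES1*, the Notch-driven repressor of neuronal genes. *SOX9* was at 18.8 and 21.0 FPKM with ND, 17.0 and 33.7 with HFD, 20.9 and 23.6 with HSD, and 20.2 and 19.4 with HFSD. *SOX2* was at 37.9 and 49.7 FPKM under ND, 38.2 and 63.4 under HFD, 41.0 and 40.2 under HSD, and 45.9 and 36.3 under HFSD. *HES1* was at 19.4 and 37.2 FPKM on ND, 25.3 and 115 on HFD, 38.2 and 38.4 on HSD, and 36.0 and 18.2 on HFSD. For all 3 genes the highest retina was HFD replicate 2, while HFD replicate 1 lay below both ND retinas for *SOX9* and between them for the other genes.

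The higher means of HFD therefore rested on 1 retina. For *HES1* the log2 difference between HFD and ND was 0.98 with a standard error of 0.66, and it was -0.08 without HFD replicate 2. For *SOX9* the difference of 0.26 became -0.21, and for *SOX2* the difference of 0.18 became -0.18. In HSD and HFSD the differences of *SOX9* and *SOX2* lay between -0.09 and 0.15, against standard errors of 0.27 and 0.25. *HES1* in HSD, at 38.2 and 38.4 FPKM, lay just above both ND retinas (log2 difference 0.49, or 0.04 without ND replicate 1).

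HFD replicate 2 was also high in other regulators. *ID1*, *ID2* and *ID3* encode inhibitors of basic helix-loop-helix factors, the family that *HES1* belongs to. *ID1* was at 44.8 and 53.1 FPKM with ND, 84.7 and 181 with HFD, 25.3 and 70.6 with HSD, and 20.1 and 24.3 with HFSD. *ID3* was at 61.3 and 65.4 FPKM under ND, 109 and 234 under HFD, 17.8 and 96.8 under HSD, and 25.8 and 22.1 under HFSD. Both HFD retinas were above ND and both HFSD retinas below it for each gene, and the 2 HSD retinas lay on either side. None of these differences passed the test, the log2 differences in HFD being 1.33 for *ID1* (s.e. 0.49) and 1.32 for *ID3* (s.e. 0.69), each with an adjusted P of 0.998. In HFSD they were -1.11 for *ID1* (limma adjusted P = 0.626) and -1.37 for *ID3* (adjusted P = 0.667). Both retinas moved one way with fat alone and the other way with fat added to sucrose for *ID1* and *ID2*, as for 4.92% of all genes tested, and likewise with sucrose without and with fat for *ID2*, as for 3.05%. Of 5 early-response genes tested, *ATF3* and *NR4A1* were highest in HFD replicate 2, at 53.5 and 95.8 FPKM against at most 9.70 and 31.6 in the other retinas. *FOS*, *FOSB* and *EGR1* were highest in ND replicate 1, at 285, 170 and 1548 FPKM, and at 222, 24.8 and 242 in HFD replicate 2. The part of such a response in the *HES1* value was not tested.

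Among the 21 tested genes of the Notch pathway and of glial transcription factors, none passed the test in any comparison, and 3, 3, 0 and 8 had an unadjusted P under 0.05 in HFD, HSD, HFSD and the sucrose comparison, beside 4.31%, 7.2%, 8.07% and 18.3% of all genes. Of the 8, 7 had lower fitted levels, *ID1*, *ID3*, *NOTCH3*, *HEYL*, *SOX10* and *LHX2* among them, and *NFIA* had a higher one. Without ND replicate 2, *SOX10*, a gene of myelinating glia, passed as lower in the sucrose comparison. The median log2 difference of the list between the sucrose diets and the others was -0.17, against -0.01 over all genes tested. The Notch ligand *JAG1* ran from 15.8 to 22.8 FPKM, the Notch effector *RBPJ* from 6.80 to 8.10, and *HEY1*, a relative of *HES1*, from 13.5 to 24.2. The homeobox genes of retinal progenitors and Müller cells, *RAX* at 144 to 202 FPKM and *LHX2* at 33.0 to 49.8, overlapped between the diets.

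**Figure D3:**
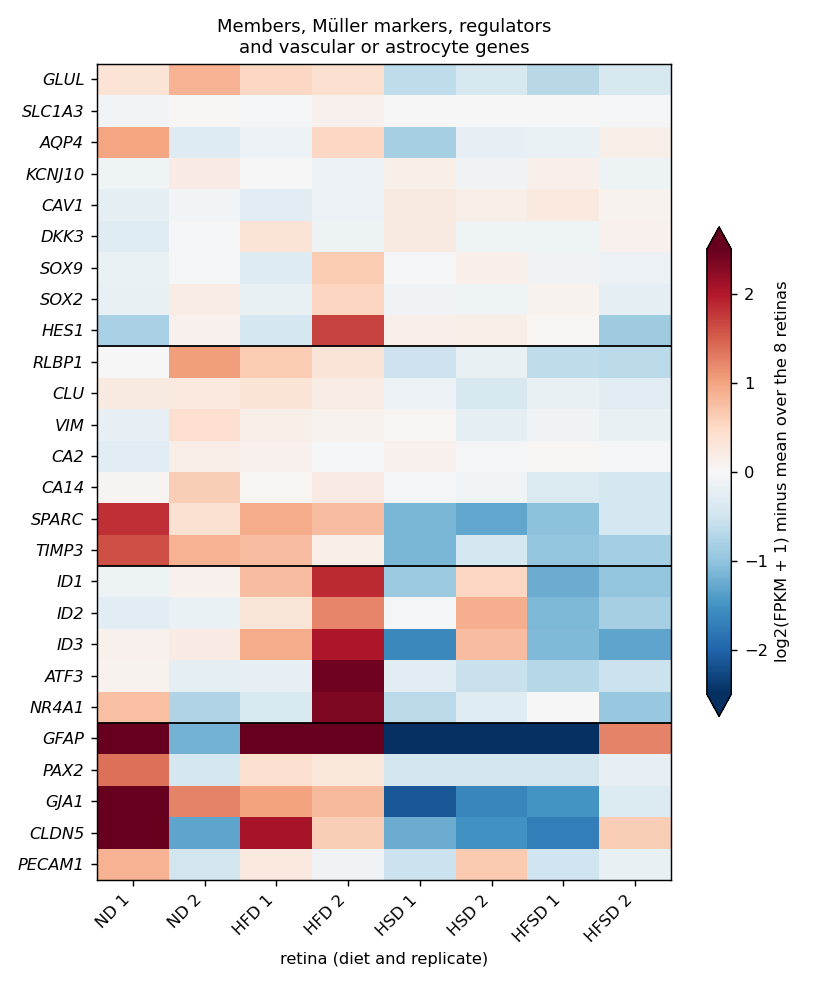
Rows are the 9 members, further Müller cell markers, regulators, and genes of astrocytes and endothelium, and columns the 8 retinas by diet and replicate. Colour is log2(FPKM + 1) minus the mean of the row, red above and blue below it, with values past 2.5 shown at the end of the scale. The column of HFD replicate 2 is red for *HES1*, *ID1*, *ID3*, *ATF3* and *NR4A1*, that of ND replicate 1 for *AQP4*, *SPARC*, *GFAP* and *GJA1*, and *GLUL* changes colour between the first 4 and the last 4 columns.

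*DKK3* encodes a secreted protein of the Dickkopf family that is abundant in Müller cells. It was at 160 and 196 FPKM on ND, 252 and 183 on HFD, 232 and 185 on HSD, and 185 and 214 on HFSD. Each diet had a higher mean than ND and overlapped with it. The log2 differences were 0.28, 0.22 and 0.16, with a standard error of 0.20. Of 7 tested genes among the other extracellular Wnt antagonists and co-receptors, none passed the test, with 1, 2, 2 and 2 at an unadjusted P under 0.05 in HFD, HSD, HFSD and the sucrose comparison, beside 4.31%, 7.2%, 8.07% and 18.3% of all genes. *SFRP2*, a secreted frizzled-related protein, was at 620.3 and 688 FPKM with ND, 779 and 689 with HFD, 325 and 181 with HSD, and 207 and 386 with HFSD, so that its 4 sucrose retinas lay below the others (log2 difference over both sucrose diets -1.40, s.e. 0.24, limma adjusted P = 0.0775). *SFRP5* was at 10.1 and 9.27 FPKM with ND, 2.83 and 6.18 with HFD, 4.24 and 4.0 with HSD, and 5.50 and 2.72 with HFSD, below ND in all 6 retinas of the other diets (log2 difference -1.03 in HFD, -1.06 in HSD and -1.12 in HFSD, limma adjusted P = 0.998, 0.542 and 0.512). *FRZB* and *WIF1* overlapped between the diets, at 169 to 239 and 183 to 387 FPKM.

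**Figure D4:**
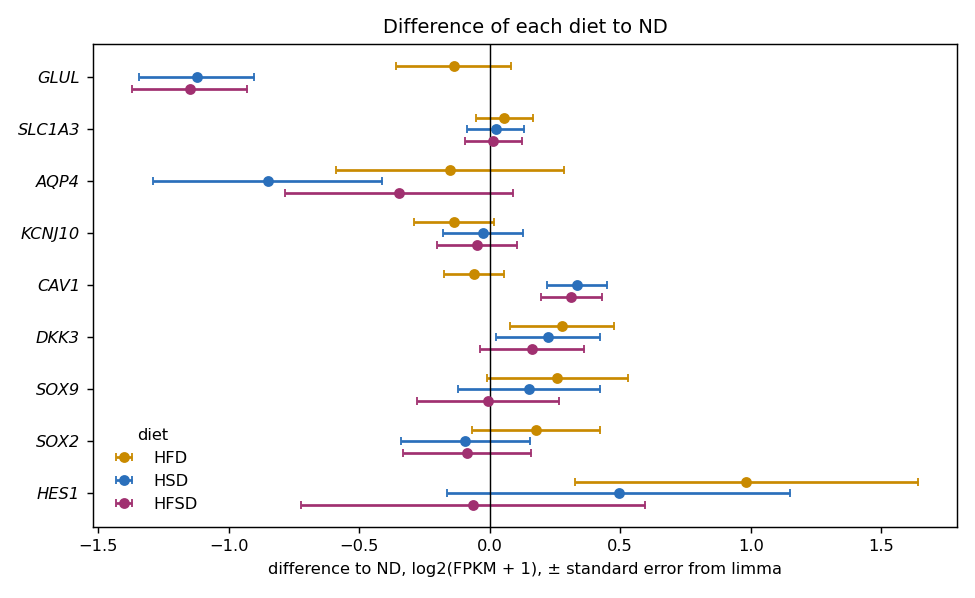
The x axis is the difference of each diet to ND on the scale of log2(FPKM + 1), and the rows are the 9 members. Points are the limma estimates for HFD, HSD and HFSD (2 retinas each against 2 ND retinas), and bars 1 standard error on either side. *GLUL* in HSD (-1.12) and HFSD (-1.15) lies on the low side, *CAV1* in both (0.33 and 0.31) on the high side, and *HES1* has the widest bars (0.66).

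A fold rule was also applied, in which the mean FPKM plus 1 of a diet is divided by that of ND and a ratio below 0.65, or above about the reciprocal of that, counts as past a limit. In HFD, 1 of the 9 members was past it (*HES1*, 2.42, higher), beside 1.38% of all genes tested past the upper limit and 1.16% past the lower. In HSD these were 2 members, both lower (*GLUL*, 0.453, and *AQP4*, 0.514), beside 1.76% of all genes higher and 3.54% lower. In HFSD it was 1 member (*GLUL*, 0.446, lower), beside 1.52% higher and 3.54% lower. *HES1* in HFD was no longer past the limit without HFD replicate 2, nor *AQP4* in HSD without ND replicate 1. Leaving out a retina also put further members past it. Without ND replicate 2, *AQP4* was lower in all 3 diets and *HES1* higher in HSD as well as HFD. *AQP4* was also lower in HFD without HFD replicate 2 and in HFSD without HFSD replicate 2, and *SOX9* was higher in HFD without HFD replicate 1.

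Separation of the retinas was counted as well. In HFD, none of the 9 members had both retinas above or both below the 2 ND retinas, beside 12.5% and 13.3% of all genes tested. In HSD, *HES1* and *CAV1* were above (19.3% of all genes) and *GLUL* below (19.7%). In HFSD, *CAV1* was above (21.6%) and *GLUL* below (20.6%). All 4 sucrose retinas lay above the 4 others for *CAV1* (6.39% of all genes) and below them for *GLUL* (6.48%). With members that were chosen on these values, nothing is read from these shares.

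The further Müller cell markers were a list separate from the members. Of 17 genes, 15 were in the table and tested. Between the sucrose diets and the others, 13 of the 15 had a lower and 2 a higher fitted level, with a median log2 difference of -0.44 against -0.01 over all genes. At a limma unadjusted P under 0.05, 8 were lower and 1 higher in that comparison, beside 18.3% of all genes. In HSD and in HFSD 6 were lower and 0 higher, beside 7.2% and 8.07%, and in HFD 1 was higher and 0 lower, beside 4.31%. All 4 sucrose retinas lay below the 4 others for 7 of the 15, beside 6.48% of all genes. Only *TIMP3*, an inhibitor of matrix metalloproteinases that pigment epithelium also makes, passed the test, and it fell. It was at 18.1 and 10.4 FPKM under ND, 9.62 and 6.02 under HFD, 1.84 and 3.59 under HSD, and 2.16 and 2.46 under HFSD, with a log2 difference of -1.71 (s.e. 0.24, limma adjusted P = 0.0437). It did not pass with median-of-ratios scaling, with no filter, with the replicate number as a block, in the voom fit, or when any library but ND replicate 2 was left out.

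*SPARC*, a secreted matrix protein of glia and vessels, was at 621 and 229 FPKM on ND, 331 and 301 on HFD, 78.4 and 70.3 on HSD, and 84.9 and 129 on HFSD (log2 difference over both sucrose diets -1.95, s.e. 0.30, limma adjusted P = 0.0576). It passed the test in that comparison without either of the ND retinas, and in HSD and HFSD without ND replicate 2. *RLBP1* had a log2 difference of -1.0 (s.e. 0.22, limma adjusted P = 0.102) and the carbonic anhydrase *CA14* of -0.46 (s.e. 0.12, adjusted P = 0.153), and *RLBP1* passed without ND replicate 1. *CRYAB*, a small heat-shock protein, was at 208 and 187 FPKM with ND, 291 and 317 with HFD, 178 and 175 with HSD, and 123 and 171 with HFSD, so that it lay above ND in both HFD retinas and below it in all 4 sucrose retinas (log2 difference over both sucrose diets -0.61, s.e. 0.12, limma adjusted P = 0.0902, and in HFD 0.62, adjusted P = 0.998). *CLU*, the chaperone clusterin, was at 734 to 825 FPKM in the 4 retinas without sucrose and at 488 to 583 in the 4 with it. *VIM* (697 to 1090 FPKM) and *CA2* (408 to 555) overlapped between the diets, and *ABCA8* lay higher in the 4 retinas with sucrose, at 29.6 to 36.3 against 21.4 to 28.9 FPKM. The genes whose sucrose retinas lay lower held *GLUL*, *RLBP1*, *CLU*, *CRYAB* and *SPARC*, while *SLC1A3*, *KCNJ10*, *VIM* and *CA2* of the same cells did not stand apart. The summed microglia markers, 8 in all, split the same way, at 14.1 to 24.0 FPKM without sucrose and 9.76 to 13.0 with it. All 7 myelin genes had a lower fitted level with sucrose, with a median log2 difference of -1.83, and all 7 had an unadjusted P under 0.05, beside 18.3% of all genes. Of the 8 pigment epithelium markers tested, 7 were lower at that threshold, with a median of -1.27. None of these 15 genes passed the adjusted test, and their sums overlapped between the diets (96.5 to 703 and 45.6 to 155 FPKM for myelin, 58.6 to 328 and 27.5 to 75.0 for pigment epithelium). The medians of both lists, and that of the astrocyte markers, were further below 0 than the -0.44 of the Müller cell markers. The part of these cell types in the values of the Müller cell markers was not tested.

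Relations among the members over the 8 retinas are given as a description, since the retinas share diets and libraries. On log2(FPKM + 1), *SOX9* and *HES1* had a Pearson correlation of 0.91 and *SOX2* and *HES1* of 0.92, and without HFD replicate 2 these were 0.66 and 0.74. *SOX9* and *SOX2* had 0.84, and 0.40 without it. *SLC1A3* and *SOX2* had 0.93 with that retina and 0.80 without it, over the narrow range of *SLC1A3*. *GLUL* and *CAV1* formed 2 clusters of 4 retinas, with and without sucrose, for which no pooled correlation is given. *AQP4* and *KCNJ10*, whose proteins share a place in the endfoot, had -0.71.

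In the same way, the genes most like each member were sought among 9868 protein-coding genes with a symbol, by Pearson correlation of log2(FPKM + 1) over the 8 retinas. For *GLUL* and *CAV1* such a correlation follows the 2 clusters. For *GLUL* these were *MRVI1* (0.99), *PXYLP1* (0.98) and *TAX1BP3* (0.98), of which *PXYLP1* was at 140 to 240.5 FPKM without sucrose and 38.1 to 43.9 with it. For *CAV1* they were *SLIT1* (0.98), *C11orf87* (0.97) and *SALL3* (0.96), and *C11orf87* was at 12.5 to 17.1 FPKM without and 23.5 to 27.1 with sucrose. For *AQP4* they were *GAB1*, *PPP1R16B* and *EDNRB* (0.94 each), and *EDNRB*, the endothelin receptor of glia, was highest in ND replicate 1 at 15.3 FPKM. *HES1* (*ADAT2*, *FBXO24* and *ZMYM5*, 0.96 to 0.98) shared *ZMYM5* with *SOX9* (*RCOR3*, *ZMYM5* and *ZSWIM8*, 0.94 to 0.98) and *FBXO24* with *SLC1A3* (*SFI1*, *GTF2IRD1* and *FBXO24*, 0.96), and for *SOX2* they were *CDC14B*, *SLC15A3* and *CXCL10* (0.97 to 0.98). Each of these genes was highest in HFD replicate 2, *ZMYM5* at 5.70 FPKM against 2.90 to 3.94 elsewhere and *FBXO24* at 2.49 against 1.64 to 1.97. Without that retina the correlations were 0.85 to 0.91 for *HES1*, 0.78 to 0.93 for *SOX9*, 0.89 to 0.96 for *SLC1A3* and 0.91 to 0.95 for *SOX2*. The other sets were, for *KCNJ10* *GTF2I*, *INTS3* and *SEC13* (0.95 to 0.98), and for *DKK3* *TIMM8A*, *RBBP4* and *RNF8* (0.94 to 0.99). By Spearman correlation only 1 of these 27 pairs was again among the top 3.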

How the data were processed

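RNA of 8 retinas was sequenced on a HiSeq instrument from TruSeq libraries. The authors checked the reads with FastQC, trimmed them, aligned them with TopHat2 to a rabbit genome (up to 2 mismatches), discarded reads with several positions, and computed the deposited FPKM of each gene with their own R script. The genome build is not given in the sources used here, so no coordinates or sequences are printed. No value column lacked a sample (0 columns).

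The 12204 protein-coding genes that reached 1 FPKM in 2 or more libraries were fitted on log2(FPKM + 1) with limma (version 3.58.1, R 4.3.3), with a variance trend and 1 model of the 4 diets, and adjusted by the Benjamini-Hochberg method. Whole fragments were recovered from the FPKM steps (100% of values whole within 0.02 fragments) for a voom fit.

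Members, gene lists and comparisons were chosen with earlier results of these data known, so they support nothing independently. Named genes were the members, listed genes past a fold limit with both retinas beyond both ND retinas and a mean of at least 5 FPKM, and the 3 genes most correlated with each member. Other genes were named after their values were seen. Some listed genes are not reported here. APOE and S100A16 were not analysed here.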

Additional observations from a re-analysis of the deposited data

Results flagged for a closer look

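Among the members and the related genes named by rule, *ID2* and *ID1* were picked out because 2 retinas moved one way under a diet component and 2 the other way under the same component in the other background. For *ID2*, an inhibitor of basic helix-loop-helix factors, the level was 16.5 and 17.9 FPKM with ND, 25.1 and 48.2 with HFD, 19.4 and 38.8 with HSD, and 8.70 and 10.8 with HFSD. Sucrose alone went with higher values in both retinas, and sucrose added to fat with lower values in both, and the same held for fat without and with sucrose. The interaction was -2.39 on the log2 scale (s.e. 0.52, limma adjusted P = 0.999) and did not pass the test across all genes. Of all genes tested, 3.05% met the condition for sucrose and 4.92% for fat, and since the gene was picked by the same values, the interaction is a description.

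*ID1* met it for fat only. Both HFD retinas (84.7 and 181 FPKM) lay above ND (44.8 and 53.1), and both HFSD retinas (20.1 and 24.3) below HSD (25.3 and 70.6), with an interaction of -2.24 (s.e. 0.69, limma adjusted P = 0.999). HFD replicate 2 was the highest of the 8 retinas for both genes. No member met this condition, and no single retina was tested for lying apart from the other of its diet.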

How the results depend on the processing

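No alternative other than leaving out a retina moved a log2 difference of a member by more than its residual s.d. Of 396 such values 376 stayed within it, and the 20 that did not came from leaving out an ND retina (*GLUL*, *AQP4*) or an HFD retina (*SLC1A3*, *SOX9*, *SOX2*, *HES1*). For the 25 differences to ND of the related genes named by rule, 248 of 250 values kept their direction and side of the threshold, and the other 2 (*SPARC* in HSD and HFSD) passed without ND replicate 2. In the sucrose comparison calls changed more often, for *TIMP3*, *SPARC*, *RLBP1* and *SOX10*.

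Genes called over all genes were 3 in HSD and 8 for sucrose with no filter (7 and 42 in the reported fit), 0 for fat and 0 for the interaction. In voom they were 2 in HSD, 4 in HFSD, 18 for sucrose and 0 for the interaction, which was also 0 with a pseudocount of 0.1 and with median-of-ratios scaling. With the replicate block they were 4 in HFSD, 25 for sucrose and 0 for the interaction. The same numbers did not pair the retinas, since the deviations of same-numbered retinas correlated between -0.165 and 0.0813. The number of related genes called for sucrose was 0 with no filter, with the scaling, with the block and in voom.

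With 1 retina left out, the number called was 1 to 2 in HFD, 3 to 17 in HSD, 2 to 11 in HFSD, 4 (without HSD replicate 2) to 82 (without ND replicate 1) for sucrose, 0 to 5 for fat and 0 to 10 for the interaction. For sucrose it was 0 to 3 related genes. The lone retina of such a diet was assumed to vary like the others.

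Over all 19293 protein-coding genes, with no filter, 1533, 2311 and 2145 were past the fold limits with HFD, HSD and HFSD at a pseudocount of 0.1, against 339, 762 and 661 at 1. With 1 retina left out they were 629 to 777, 881 to 1116 and 831 to 1200, and the members past them were 1 to 2, 1 to 3 and 1 to 2. *AQP4* rests on as few as 60 fragments, and the precision of all values is set by 2 retinas per diet.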
